A study of Homo sapiens with 10 samples.

Results

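The genes described here are the olfactory receptor genes outside chromosome 11. They were chosen by name and place alone, as the protein-coding RefSeq genes (assembly GRCh38.p14) on autosomes other than chromosome 11 whose symbol is OR, digits, letters and digits. The rule found 218 genes among 19866 protein-coding genes, and 168 receptor genes of the same naming lie on chromosome 11. Every sample came from HEK293T, an established line of human embryonic kidney origin with the SV40 large T antigen. Chromatin from nuclei cut with micrococcal nuclease was precipitated with antibody and sequenced (ChIP-seq), and the deposited results are lists of peak summits, the single base at which each peak is highest. The list called EMBOW-F was made with cells that stably express a tagged form of the microprotein EMBOW (EMBOW-FH in the labels), precipitated on anti-FLAG beads. The KO list comes from EMBOW KO cells and the WT list from wild-type cells, both precipitated with an antibody to WDR5, a subunit of the COMPASS complexes that methylate lysine 4 of histone H3. The promoter that drives the tagged EMBOW and whether the KO cells are 1 clone are not stated in the sources.

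Olfactory receptors are G protein-coupled receptors of the sensory neurons of the nose, and each neuron is known to express a single receptor allele. Their genes sit in tandem clusters on many chromosomes, among many pseudogenes, with a short uninterrupted coding exon that is often preceded by small upstream exons. In most cells other than olfactory neurons most of these genes are held to be silent. The lists measure binding and not expression, so neither the identity of the cells nor the expression of these genes was measured.

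There were 93143 summits in the EMBOW-F list, 21055 in KO and 17660 in WT. With 1 library per list there is no replicate check, and no p-value is given. Every interval below is a 95% interval that covers counting error only. Intervals of shares and their differences count neighbouring genes as independent. Calls were grouped by place, so these intervals may be too narrow. The score of a summit is the −log10 q value that the authors' peak caller gave it, with a median of 3.25 for EMBOW-F, 6.28 for KO and 6.53 for WT. Scores and ranks are read only within a list. Read depth is unknown.

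The promoters of 4 members are shown because they stand next to EMBOW-F summits. OR6Y1 and OR6N2 are the members whose matched RefSeq promoter holds an EMBOW-F summit, and the capitals mark the 21 bases centred on it. OR2A25 and OR2A2 are the best-scored members, and their nearest summits to the start lie 132 bp and 70 bp inside the gene, so these stretches have no capitals. For OR2A2 that summit is its best-scored one, at 6.40. For OR2A25 it scored only 1.68, and the best-scored summit lay at the other end, 80 bp beyond the gene. Each line gives the 250 bases before the gene's start from the RefSeq promoter table (GRCh38.p14), 5′ to 3′ on the gene's strand. The OR6Y1 stretch is chr1:158554406-158554655 on the minus strand, with its summit at 158554610, and OR6N2 is chr1:158781205-158781454 on the minus strand, with its summit at 158781325. OR2A25 is chr7:144069561-144069810 and OR2A2 is chr7:144109333-144109582, both on the plus strand.
OR6Y1: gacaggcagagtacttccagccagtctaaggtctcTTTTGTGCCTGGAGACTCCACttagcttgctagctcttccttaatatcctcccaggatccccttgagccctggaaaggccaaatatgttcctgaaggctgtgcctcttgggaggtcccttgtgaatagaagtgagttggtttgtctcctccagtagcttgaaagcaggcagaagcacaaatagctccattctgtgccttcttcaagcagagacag
OR6N2: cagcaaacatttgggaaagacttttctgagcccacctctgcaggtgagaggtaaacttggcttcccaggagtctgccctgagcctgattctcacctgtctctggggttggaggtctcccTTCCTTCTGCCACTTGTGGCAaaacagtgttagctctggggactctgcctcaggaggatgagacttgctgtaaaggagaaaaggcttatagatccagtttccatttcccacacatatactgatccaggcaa
OR2A25: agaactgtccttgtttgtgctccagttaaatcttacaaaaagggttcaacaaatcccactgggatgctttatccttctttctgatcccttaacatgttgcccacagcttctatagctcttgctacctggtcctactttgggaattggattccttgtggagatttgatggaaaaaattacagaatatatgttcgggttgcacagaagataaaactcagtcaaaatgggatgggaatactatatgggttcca
OR2A2: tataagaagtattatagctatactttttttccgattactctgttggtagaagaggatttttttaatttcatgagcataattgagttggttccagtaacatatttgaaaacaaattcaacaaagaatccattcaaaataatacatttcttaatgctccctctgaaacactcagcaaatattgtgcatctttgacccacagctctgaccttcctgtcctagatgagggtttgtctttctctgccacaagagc

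Tagged EMBOW lay close to a part of the receptor genes, while WDR5 was all but missing from them. An EMBOW-F summit within 1 kb of either gene end (a gene-end summit) was found at 30 of the 218 genes, or 13.8% (exact interval 9.48 to 19.1%), against 1.4% of all protein-coding genes. A KO WDR5 summit stood at 0 of 218 genes (0 to 1.68%), against 53.9% of all protein-coding genes. A WT WDR5 summit stood at 1 of 218 genes, or 0.459% (0.0116 to 2.53%), against 50.4% of all protein-coding genes. The median distance to the nearest summit was 32608 bp for EMBOW-F, 197684 bp for KO and 161483 bp for WT at the receptor genes. Over all protein-coding genes these medians were 1527370 bp for EMBOW-F, 670 bp for KO and 951.5 bp for WT.

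**Figure D1:**
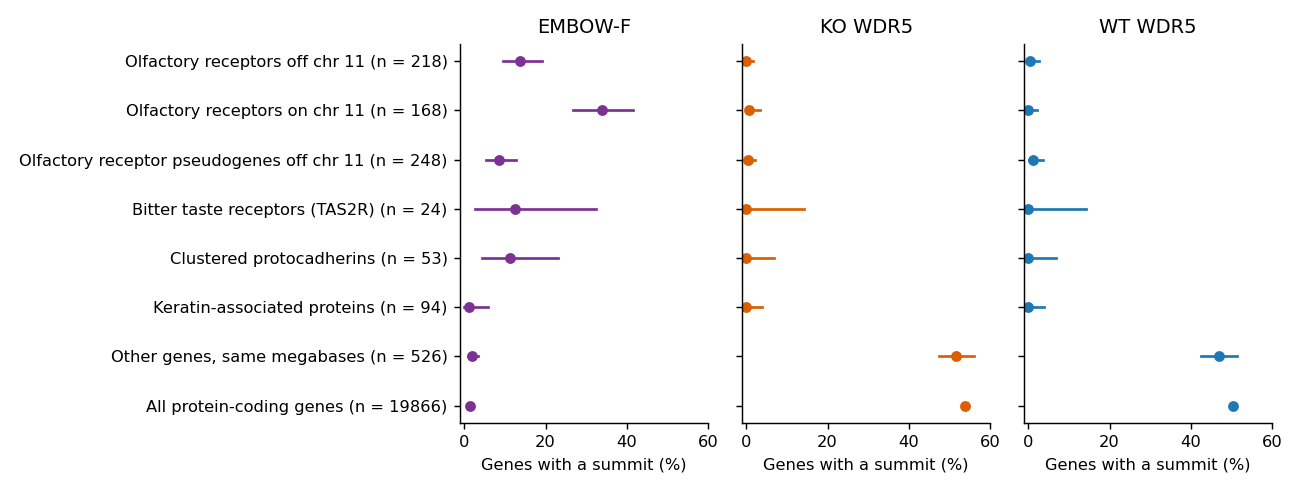
Share of genes (percent, x axis) with a summit within 1 kb of a gene end, for the receptor genes and the gene sets set beside them (y axis), with 1 panel per list and bars for exact 95% intervals. The 218 receptor genes stand at 13.8% for EMBOW-F, 0% for KO and 0.459% for WT.

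The genes with an EMBOW-F summit were concentrated in a few places. Chromosome 7 had 10 of its 15 receptor genes called, 66.7% (38.4 to 88.2%), and chromosome 1 had 15 of 61, 24.6% (14.5 to 37.3%). Chromosome 9 had 2 of 25, chromosome 12 had 2 of 18 and chromosome 3 had 1 of 10. None of the members on the other 11 chromosomes was called. By gene family, the calls fell on OR2 (10 of 63), OR6 (7 of 25), OR10 (7 of 19), OR13 (2 of 11), OR14 (2 of 7), OR5 (1 of 14) and OR9 (1 of 3). Families OR4 with 26 genes, OR1 with 25, OR7 with 11 and OR11 with 8 had none.

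The best-scored gene-end summits belonged to a run of OR2A genes on chromosome 7 and to the OR10J genes on chromosome 1, which encode receptors whose odorants are not named here. OR2A25 (chr7:144069811-144075870) had the highest score, 7.78, at 144075950, 80 bp beyond its 3′ end, which ranked 2765 in the EMBOW-F list. Its other gene-end summits scored 3.76, at 626 bp inside its 3′ end, and 1.68, at 132 bp inside its 5′ end. OR2A2 (chr7:144109583-144110539), whose 957 bp gene model is the length of a coding exon, scored 6.40 at 144109653, 70 bp inside its 5′ end, and 2.77 beyond its 3′ end. Neither gene had a KO or WT summit within 1 kb of its ends.

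OR10J1 (chr1:159397465-159440967) carried 3 summits around its 5′ end, scored 5.90, 5.38 and 3.31, of which the first lay 488 bp inside the gene and the others 226 bp and 911 bp before it. OR10J5 (chr1:159535078-159536007) scored 5.90 at 159535194, 116 bp inside its 3′ end, and 3.86 at 264 bp before its start. For OR10J1 the 5′ end is that of the gene model, and the matched RefSeq start lies further inside the gene, 2561 bp from its nearest EMBOW-F summit. OR13F1 (chr9:104504263-104505222) scored 5.17 at 327 bp inside its 3′ end and 2.70 at 848 bp beyond it, both past its start.

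Below these, OR2A12 scored 4.90, OR13C8 4.51, OR2F2 4.45, OR6B1 4.21 and OR14A2 3.89. OR10K1, OR10X1, OR2A42, OR2T4, OR6K6 and OR9A4 shared a score of 3.86. The best-scored member of chromosome 3 was OR5K1 at 3.31 and that of chromosome 12 was OR6C4 at 2.70. The lowest of the 30 were OR2AP1 at 1.82, and OR10R2 and OR2A14 at 1.68 each. OR2A42 has a near-identical copy nearby, OR2A1, and the placing of reads that match both is not stated in the sources.

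**Figure D2:**
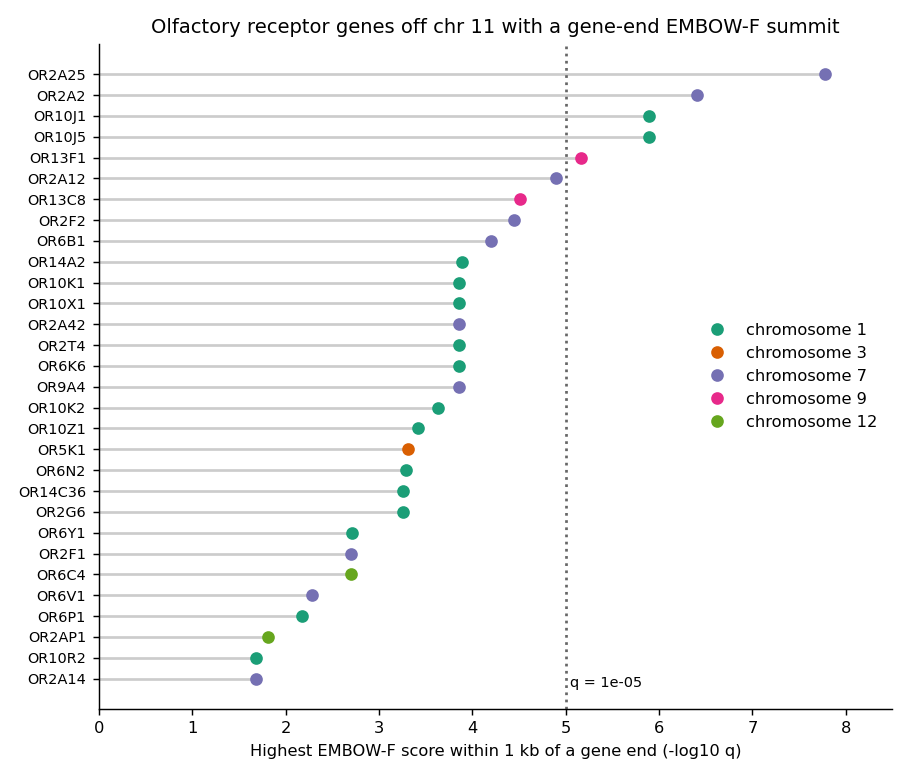
Best EMBOW-F score (−log10 q, x axis) among the summits within 1 kb of the ends of each of the 30 called receptor genes (y axis), grouped by chromosome. OR2A25 on chromosome 7 stands highest at 7.78 and OR10R2 and OR2A14 lowest at 1.68.

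The 47 EMBOW-F summits at gene ends lay on both sides of the ends and at both ends of the genes. Of these, 27 lay inside a receptor gene and 20 outside, and 19 were nearer the 5′ end and 26 the 3′ end, with 2 at OR10Z1, whose strand is not in the table used. There was 1 gene-end summit at 18 genes and 2 at 7 genes. There were 3 at OR10J1, OR9A4, OR6B1, OR2A25 and OR2A12, and 8 genes had a summit at both ends. Scores ran between 1.68 and 7.78 with a median of 3.31, and 6 of the 47 reached a q of 1e-05 or less. Just inside the 1 kb limit lay OR2AP1 at 929 bp, OR2G6 at 965 bp and OR10K2 at 995 bp, and just outside it OR5H15 at 1001 bp, OR6K3 at 1161 bp and OR6C75 at 1182 bp.

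Scores at the receptor gene ends were not told apart from those of the list, and summits with a low q were rarer across the clusters than in the whole list. The share with a q of at most 1e-05 was 12.8% (4.83 to 25.7%) of gene-end summits, 13.0% (10.3 to 16.2%) of summits anywhere in the receptor clusters, 15.4% (12.5 to 18.6%) of intergenic summits in the same megabases, and 17.1% of the whole EMBOW-F list. The list holds 2768 distinct scores, and its most frequent, 3.25, is shared by 10892 summits. Many receptor genes therefore tie in rank, as the 6 genes at 3.86 do.

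Set beside similar genes, the receptor genes outside chromosome 11 were called less often than those on it. Their share of 13.8% compares with 57 of 168, 33.9% (26.8 to 41.6%), on chromosome 11, a difference of -20.2 percentage points (-28.6 to -11.7). Among olfactory receptor pseudogenes off chromosome 11, 21 of 248 had an EMBOW-F gene-end summit, 8.47% (5.32 to 12.7%). Of other tandem families, EMBOW-F was at 6 of 53 clustered protocadherin genes, which encode neuronal adhesion molecules, 3 of 24 TAS2R bitter taste receptor genes and 1 of 94 KRTAP hair keratin-associated genes. It was at 0 of 39 DEFB defensin genes, 0 of 13 IFNA interferon genes, 0 of 6 TAAR trace amine receptor genes, 0 of 4 MRGPRX genes and 0 of 3 VN1R genes. KO and WT summits were at none of the genes of these 8 families.

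Pseudogenes and intact genes were also compared within the same set of megabases, pooled and not matched by megabase. There were 15 of the 40 megabases with a receptor gene that also held intergenic EMBOW-F summits, and in those 15 the list reached 30 of 124 receptor genes, 24.2% (17.0 to 32.7%). In the same 15 it reached 18 of 68 olfactory receptor pseudogenes, 26.5% (16.5 to 38.6%), a difference of -2.28 percentage points (-15.6 to 9.94), which does not show that the shares are alike. It reached 9 of 124 other protein-coding genes there, 7.26% (3.37 to 13.3%), and the receptor genes stood 16.9 percentage points higher (7.98 to 25.8). The 15 megabases range between 1.04 and 235 intergenic EMBOW-F summits per Mb. The other genes lay a median of 88897 bp from the nearest EMBOW-F summit, against 3362.5 bp for the receptor genes. The difference therefore does not separate the genes from where they lie.

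Whether a receptor gene was called went with the EMBOW-F density of its megabase. The 10 megabases with a called gene held 105 receptor genes and between 23.9 and 235 intergenic EMBOW-F summits per Mb. Another 5 megabases, with 19 receptor genes and none called, held between 1.04 and 9.40 per Mb. The other 25 megabases, with 94 receptor genes, had no EMBOW-F summit in intergenic space or at a receptor gene. Summits were also missing near receptor genes of chromosomes on which the list is dense: chromosome 5 held 51.9 EMBOW-F summits per Mb, chromosome 6 held 52.1 and chromosome 2 held 42.8, with 0 at the 4, 17 and 2 receptor genes there.

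**Figure D3:**
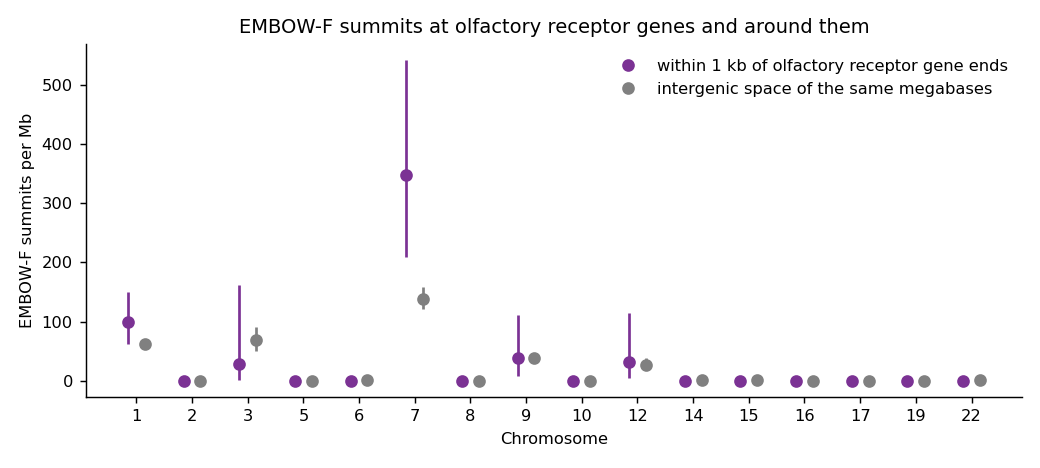
EMBOW-F summits per Mb within 1 kb of receptor gene ends beside those in intergenic space of the same megabases, by chromosome, with bars for exact 95% intervals drawn where the count is above 0. On chromosome 7 the gene ends stand at 347 per Mb and intergenic space at 139 per Mb, and on chromosome 1 at 98.5 and 61.5 per Mb.

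Gene ends were denser in EMBOW-F summits than the intergenic space of the same megabases, by a margin that depended on how closely the space was matched. The 772 kb of gene-end windows held 47 summits, 60.9 per Mb, against 572 summits in 22287 kb of intergenic space (over 1 kb from any protein-coding gene), 25.7 per Mb. Matched by megabase with a Mantel-Haenszel rate ratio, the ratio was 1.51 (1.12 to 2.03). It was 1.64 (1.06 to 2.56) on chromosome 1 and 1.87 (1.17 to 2.99) on chromosome 7, and 1.11 (0.354 to 3.49) on chromosome 9, 0.803 (0.192 to 3.36) on chromosome 12 and 0.421 (0.0581 to 3.05) on chromosome 3. With bins of 200 kb it was 1.14 (0.841 to 1.55), and against intergenic space inside the clusters it was 1.25 (0.912 to 1.70), while leaving out chromosome 1 gave 1.41 (0.938 to 2.11) and leaving out chromosome 7 gave 1.33 (0.903 to 1.96). The intervals of these 4 values reach 1.

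The receptor genes fall into 22 clusters (neighbouring members at most 1 Mb apart) with 209 genes, and 9 lone genes. EMBOW-F summits were present in 7 clusters with 118 receptor genes and absent from 15 clusters with 91 receptor genes. The densest was the chromosome 1 cluster between OR10T2 and OR10J5 (chr1:158398522-159536007), with 187 summits, 164 per Mb (142 to 190), where 11 of 15 receptor genes were called. The chromosome 7 cluster between OR9A2 and OR2A1 (chr7:143026200-144322737) had 168 summits, 130 per Mb (111 to 151), and 9 of 13 called. These 2 clusters hold 355 of the 531 EMBOW-F summits found across all clusters and 20 of the 30 called genes.

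The other 5 clusters with EMBOW-F had smaller shares of called genes. The chromosome 3 cluster between OR5AC2 and OR5K2 had 52 summits, 126 per Mb (94.4 to 166), and OR5K1 was its only called gene of 10. The chromosome 9 cluster between OR13F1 and OR13D1 had 22 summits, 115 per Mb (72.1 to 174), with 2 of 8 genes called. The chromosome 12 cluster between OR9K2 and OR10P1 had 33 summits, 64.5 per Mb (44.4 to 90.6), with 2 of 15 called, and the large chromosome 1 cluster between OR2B11 and OR14I1 had 65, 51.8 per Mb (40.0 to 66.1), with 4 of 43. The chromosome 9 cluster between OR1J2 and OR1K1 had 4 summits, 11.3 per Mb (3.08 to 29.0), and 0 of 14 called. The lone gene OR9A4 on chromosome 7 held 4 summits. The 15 clusters without a summit span 7562 kb, and a count of 0, taken to allow 3 counts, allows up to 0.397 summits per Mb there.

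**Figure D4:**
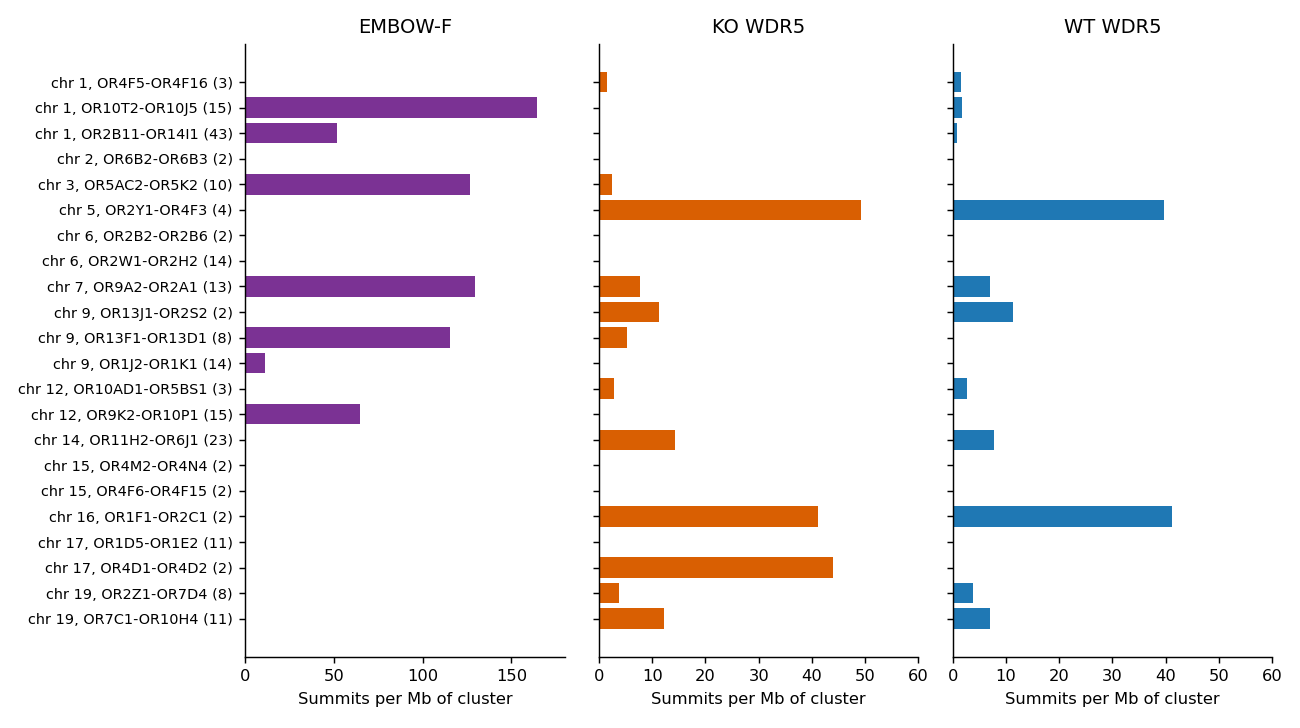
Summits per Mb (x axis) across each receptor gene cluster (y axis) in the EMBOW-F, KO and WT lists, drawn as bars without intervals. EMBOW-F is highest in the chromosome 1 cluster between OR10T2 and OR10J5 at 164 per Mb, and KO and WT are highest in clusters where EMBOW-F is at 0.

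Inside the 7 clusters, EMBOW-F summits were spread over the whole span. Their density was 106 per Mb (77.0 to 143) within 1 kb of a receptor gene end, 120 per Mb (101 to 141) at 1 to 5 kb, 100.3 per Mb (85.6 to 117) at 5 to 20 kb and 93.9 per Mb (80.6 to 109) beyond 20 kb. Inside receptor genes it was 109 per Mb (89.8 to 132). The intervals of all 5 values overlap. These values pool clusters of unequal density, and matched by cluster, gene ends over intergenic space gave the 1.25 (0.912 to 1.70) above. Matched by megabase, whole clusters were denser than the intergenic space outside them, with a ratio of 1.91 (1.57 to 2.33). At a q of at most 1e-05 this ratio was 1.60 (0.975 to 2.62), an interval that reaches 1.

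**Figure D5:**
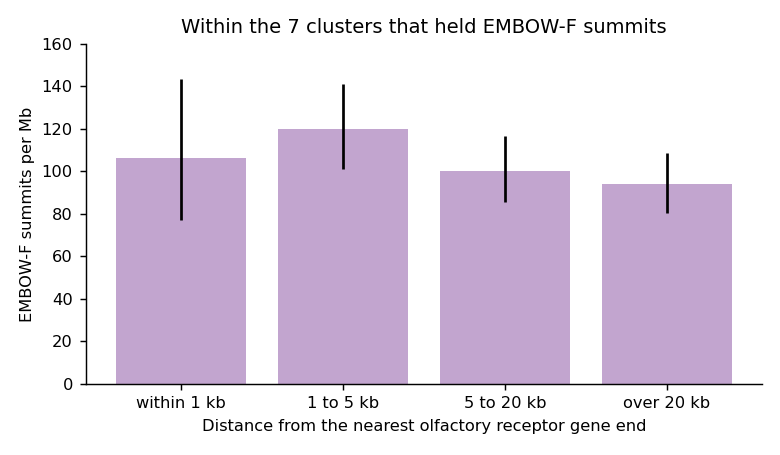
EMBOW-F summits per Mb (y axis) in the 7 clusters that hold any, by distance from the nearest receptor gene end (x axis), with bars for exact 95% intervals. Pooled density lies between 93.9 and 120 per Mb in every distance class.

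Several clusters had their strongest EMBOW-F summit away from any receptor gene. The top summit of the chromosome 1 cluster between OR10T2 and OR10J5 scored 10.1 and lay 66101 bp from OR6N1, and that of the chromosome 3 cluster scored 8.30 at 45968 bp from OR5H15. In the chromosome 7 cluster the top score was 7.87, 30587 bp from OR6V1, and in the OR13 cluster of chromosome 9 it was 8.30, 1979 bp from OR13C5. Counting gene bodies, 46 of 218 receptor genes contained an EMBOW-F summit, 21.1% (15.9 to 27.1%), against 5.18% of all protein-coding genes. The median gene length was 5188 bp for receptor genes and 24469 bp for all protein-coding genes. The most were in OR2L13 with 19 in a gene model of 163987 bp, OR6N1 with 14 in 76161 bp and OR10J1 with 9 in 43503 bp, which are among the long models that take in distant upstream exons. Of the 119 other protein-coding genes that overlap the clusters, 4 had an EMBOW-F gene-end summit: PIP, which encodes a secreted protein (best score 4.68), the bitter taste receptor genes TAS2R39 and TAS2R60, and PYHIN1, an interferon-inducible gene.

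In the receptor clusters, a part of the WDR5 summits of both genotypes stood at the ends of other genes. The clusters held 112 KO and 80 WT summits, of which 46 KO and 41 WT summits were at the end of a protein-coding gene, and of these 0 KO and 1 WT summits were at a receptor gene. The chromosome 14 cluster between OR11H2 and OR6J1, which encloses 41 other genes, held 42 KO and 23 WT summits, and the chromosome 5 cluster between OR2Y1 and OR4F3 held 31 KO and 25 WT summits. EMBOW-F had 0 summits in both clusters. The 7 clusters with EMBOW-F held 12 KO and 12 WT summits, and the other 15 clusters held 100 KO and 68 WT summits.

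The highest-ranked WDR5 summit in the clusters lay at RACK1 in both genotypes. RACK1, a ribosome-bound scaffold protein gene on chromosome 5, had rank 16 in KO and rank 8 in WT. The summit that followed, 2409 bp from TRIM52 in KO and 2431 bp in WT, had rank 163 in KO and rank 123 in WT. PNP, which encodes purine nucleoside phosphorylase, had ranks 193 in KO and 307 in WT, and the zinc finger gene ZFP62 had ranks 400 in KO and 395 in WT. Others were SUPT16H, a subunit of the histone chaperone FACT (1742 in KO, 2179 in WT), AKAP8L (1793 in KO, 3328 in WT) and TRIM7 (1801 in KO, 2930 in WT). The AKAP8L ranks belong to summits at opposite ends of the gene, and the WT summit 154 bp from the KO one had rank 3792. ZNF263 (1803 in KO, 1353 in WT), PIP4P1 (1977 in KO, 1920 in WT) and TRIM41 (2303 in KO, 1042 in WT) were also among the highest-ranked. Of 526 other genes in the same megabases, 51.7% had KO and 47.0% had WT summits at an end. Of the 119 other genes that overlap the clusters, 34.5% (26.0 to 43.7%) had KO and 30.3% (22.2 to 39.3%) had WT summits at an end. Receptor genes without WDR5 thus stood among genes of which a part had it.

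OR2V2 on chromosome 5 was the receptor gene with a WDR5 gene-end summit. It lay in the WT list at 181159999, 714 bp beyond the gene (chr5:181147586-181159285), with a score of 1.83 and rank 17149 of 17660. The nearest KO summit was 1300 bp from OR2V2 and 586 bp from the WT summit, with a score of 6.66, so the 1 kb limit separates the genotypes here. A KO summit lay inside 2 of 218 receptor genes, 0.917% (0.111 to 3.27%), against 55% of all protein-coding genes. A WT summit also lay inside 2 of 218, against 51.3% of all protein-coding genes. OR1F1 on chromosome 16 held a KO summit 1114 bp inside the gene (score 3.67) and a WT summit 1132 bp inside it (score 2.82), which lie 18 bp apart, and a second WT summit at 3191763 (score 2.57), 2445 bp from the nearest KO summit. OR4D1 on chromosome 17 held a KO summit (58157244, score 4.18), whose nearest WT summit was 73534 bp away, and OR2A5 on chromosome 7 held a WT summit (144056967, score 4.14).

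KO summits across the clusters outnumbered WT summits 1.40 to 1 (1.04 to 1.89), against 1.19 (1.17 to 1.22) for the whole lists. With the KO list shortened to the length of the WT list by rank the ratio was 1.10 (0.803 to 1.51), and without the chromosome 14 cluster it was 1.23 (0.853 to 1.77), so the intervals then reach 1. There were 50 KO and 50 WT summits with a partner in the other list within 500 bp. In the clusters, 0 KO and 2 WT summits had EMBOW-F within 500 bp. Of these WT summits, 1 was the summit inside OR2A5, 36 bp from an EMBOW-F summit, and the other lay 8527 bp from OR10J1, 162 bp from one. Matched by megabase, clusters over the intergenic space outside them gave 1.22 (0.856 to 1.75) for KO and 1.37 (0.913 to 2.04) for WT. These ratios rest on 70 KO and 57 WT summits, since a megabase wholly inside a cluster has no such space. They leave out all 42 KO and 23 WT summits of the chromosome 14 cluster. Gene ends over intergenic space gave 0 for KO, with an upper limit of 1.11 that allows 3 counts, and 0.494 (0.0717 to 3.40) for WT.

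Genes that act with the receptors in olfactory neurons had gene-end summits of WDR5 at some members and of EMBOW-F at none, shares not told apart from those of all protein-coding genes. Of 30 such genes, 0 had an EMBOW-F gene-end summit (0 to 11.6%), an interval that holds the 1.4% of all protein-coding genes. A KO one was at 15, 50% (31.3 to 68.7%), against 53.9% of all, and a WT one at 14, 46.7% (28.3 to 65.7%), against 50.4% of all, and 13 genes had both. Those with both were the signalling genes GNAL (the olfactory G protein subunit), GNB1, ADCY3 (the adenylyl cyclase that follows it) and RIC8B (a G protein chaperone), the receptor trafficking gene REEP1, and regulators of receptor choice or neuron identity, EBF1, EBF2, EBF3, EBF4, LHX2, EMX2, ATF5 and KDM1A (a histone demethylase). ANO2, a chloride channel gene, had a KO summit at 920 bp, and the phosphodiesterase gene PDE4A had a KO summit at 210 bp with its nearest WT summit at 2663 bp. SLC24A4, a sodium/calcium exchanger gene, had a WT summit at 820 bp and its nearest KO summit at 1040 bp. OMP, the channel genes CNGA2, CNGA4 and CNGB1, and RTP1 and RTP2, which carry receptors to the cell surface in mice, had none in any list.

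The receptor promoters differed in base composition from other promoters, and by far less between called and uncalled genes. A RefSeq promoter matched 176 of the 218 receptor genes, and the median share of A and T in the 250 bases before the start was 62% there, against 38% in 15843 protein-coding promoters. It was 61.6% in 29 called genes and 62% in 147 uncalled genes. Among 74 uncalled genes in clusters with EMBOW-F it was 63.6%, and among 67 genes in clusters without EMBOW-F it was 59.6%. The median number of CpG dinucleotides was 1 in receptor promoters and 17 in all promoters. TATAAA, on either strand of the 300-base promoter, was in 34.7% of receptor promoters against 9.83% of all, and TAATTA, a core that homeodomain factors such as LHX2 bind, in 21.6% against 3.37%. Called and uncalled receptor promoters held TATAAA in 27.6% and 36.1% and TAATTA in 20.7% and 21.8%, differences that were not tested. CACGTG, the E-box, was in 2.27% against 8.84%, and the palindromic EBF motif in 0.568% against 1.42%. TATAAA and TAATTA consist of A and T alone, and the motif shares were not adjusted for base composition. Only OR6Y1 (205 bp before the start, score 2.71) and OR6N2 (121 bp before, score 3.30) of the 176 had an EMBOW-F summit inside the promoter, and these are the summits marked above.

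The authors' deposited table of transcripts chosen as WDR5 targets that depend on EMBOW overlaps 7 of the 218 receptor genes on either strand, 3.21%, against 2288 of 19866 protein-coding genes, 11.5%. These shares were not adjusted for gene length, with medians of 5188 bp for receptor genes and 24469 bp for all protein-coding genes. In the authors' deposited table, OR5H6, OR5H2, OR5K4 and OR5K3 on chromosome 3 lie within a single long transcript (chr3:98233651-98457898). OR5K2 overlaps a transcript given on the minus strand (chr3:98497912-98522887) in the authors' deposited table, and the KO summit nearest to the gene lay 23899 bp from it. OR13C8 and OR4D1 are listed with transcripts of the same ends as the genes in the authors' deposited table. OR4D1 also has shorter transcripts in the authors' deposited table, of which chr17:58157028-58157800 holds the KO summit at 58157244. Of these 7, OR13C8 had an EMBOW-F gene-end summit and OR4D1 the KO summit inside its body, and none had a KO or WT summit within 1 kb of its ends. That distance is to the ends of the genes, and distances to the ends of the listed transcripts were not measured.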

How the data were processed

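Per the submitters' processing notes, the tools were MACS2 2.2.7.1, Bowtie2 2.4.5 and deepTools 3.5.1 on hg38, with no role given for each. The authors deposited 1 bp summits with a score in the form of MACS2's −log10 q, and this unit was inferred from the values, the lowest being 1.30 in each list, the −log10 of 0.05. The sources do not state the input used or any pooling. The EMBOW-F list belongs to no single sample in the deposit and was matched to the FLAG precipitation, since no other ChIP of tagged EMBOW is labelled. The labels give 10 samples, and H3K4me3 and input libraries were not analysed here.

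Gene positions came from RefSeq (GRCh38.p14). Rows that carry coordinates of other scaffolds under a chromosome name were left out (171 protein-coding rows, none a member, 3 of them receptor genes of chromosome 11). Summits were counted within 1 kb of gene ends, across clusters and in intergenic space of the same 1 Mb bins. Shares carry exact Clopper-Pearson intervals, densities exact Poisson intervals, and density ratios Mantel-Haenszel intervals. Differences of shares carry Newcombe intervals. Precision is limited by summit numbers, and list lengths, which may follow depth, were not corrected for. The counting steps were tested on simulated data. The software was Python 3.11.15 with scipy 1.17.1, numpy 2.4.6, matplotlib 3.10.9 and pandas 2.3.3.

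The members, gene lists and tests were chosen with earlier results of these data known. The genes named are members with a WDR5 gene-end summit, the 15 best-scored EMBOW-F members and the best of each chromosome, the 5 with most summits, those beside the 1 kb limit, 10 other cluster genes by KO rank and the olfactory list. A gene that the rule takes is not reported here. Genes shown by sequence or named for summits in their bodies, for cluster maxima or from the authors' table, the lowest-scored members, and other cluster genes with EMBOW-F were added after their values were seen.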

Additional observations from a re-analysis of the deposited data

How the results depend on the processing

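Of 97 alternative values for 10 results, 80 were labelled as the same as the reported value, 17 as moved and 0 as reversed. These labels allow wide changes where the reported interval is wide. WT gene-end ratios between 0.390 and 1.05 counted as the same as 0.494 (0.0717 to 3.40). The KO cluster ratio fell below 1 when pooled and counted as moved, so 0 reversed says little for such ratios. Leaving out chromosome 2, 5, 8, 10, 16, 17 or 19 kept the EMBOW-F gene-end ratio at 1.51, since these added no summits to it. The number of called genes followed the distance allowed. EMBOW-F reached 50 receptor genes at 2 kb and 71 at 5 kb, and 5 at a q of 1e-05 or less. KO reached 2 at 2 kb, 8 at 5 kb and 1 with summits widened by 250 bp. WT reached 0 at 500 bp, 3 at 2 kb, 5 at 5 kb, 0 at a q of 1e-05 or less and 2 with widened summits. Pooling the same megabases without matching gave 2.37 for EMBOW-F gene ends over intergenic space and 2.82 for EMBOW-F clusters. For KO clusters it gave 0.792 (0.565 to 1.11), below 1, where the matched ratio was 1.22. The WT gene-end ratio became 0 at 500 bp, at a q of 1e-05 or less and without chromosome 5, since it rests on 1 summit. With clusters joined only over gaps of at most 200 kb, clusters over intergenic space gave 1.59 (1.08 to 2.34) for KO and 1.75 (1.13 to 2.70) for WT, and these intervals leave 1 out. The EMBOW-F gene-end ratio at a q of 1e-05 or less was 1.24 (0.556 to 2.76). Intergenic space inside clusters only, and leaving out the chromosome 14 cluster, were chosen after seeing the data. The cause of these shifts was not tested. No paired analysis was possible because each group has 1 library.

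With 1 or 0 gene-end summits, a difference between the KO and WT lists at receptor genes was not detectable. The lists hold no reads, so depth is unknown, and mappability in these repeated gene families was not tested.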
